A study of Mus musculus with 2 samples.

Results

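Pericytes and smooth muscle cells, the mural cells that wrap retinal blood vessels, were few in dissociated mouse retina at postnatal day 7 (P7). The rule kept barcodes with at least 1000 UMIs (unique molecular identifiers, 1 per captured RNA molecule), at least 500 genes and at most 15% mitochondrial UMIs. Of these it took barcodes with at least 3 of the 7 genes Rgs5, Pdgfrb, Kcnj8, Cspg4, Acta2, Vtn and Ndufa4l2, of which at least 1 was Pdgfrb or Rgs5, and with 0 UMIs of the microglial gene C1qa. It chose 74 of 24841 kept barcodes. The control library gave 35 of 11361 (0.308%, exact Clopper-Pearson 95% interval 0.215 to 0.428%), and the Mettl14-cKO library 39 of 13480 (0.289%, 0.206 to 0.395%). The shares differed by less than their counting error.

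The study profiled single cells of whole retina to see what loss of Mettl14 changes; Mettl14 is the partner of Mettl3 in the enzyme complex that writes N6-methyladenosine (m6A) on messenger RNA. Control animals were labelled Mettl14 fl/fl or fl/wt, with no Cre named. The Mettl14-cKO animals were Mettl14 fl/fl;Chx10-Egfp/Cre, so both groups carried floxed Mettl14, and the Cre transgene is driven by Chx10, a gene of retinal progenitors and bipolar cells. Each genotype was 1 library of P7 retinas, and the labels give no number of pooled animals, no sex and no batch. With 1 library per genotype no test was made, and genotype cannot be told apart from animal or preparation. Intervals here stand for counting error alone; how much cells or animals vary is not in them.

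Pericytes lie within the capillary basement membrane, recruited along growing vessels by PDGF-B from endothelial cells acting on the receptor Pdgfrb, and they help to build the blood-retina barrier. Smooth muscle cells ring arterioles and carry the contractile apparatus, with Acta2, Tagln and Myh11 among its best known genes. Mural cells of the retina arise outside the retinal progenitor lineage, and at P7 the vessels of the mouse retina are still growing.

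The chosen barcodes were deeper than the rest, with a median of 6685 control UMIs (range 3307 to 38581) and 5669 Mettl14-cKO UMIs (range 2114 to 26982), against 3484.5 and 3209 in all other kept barcodes. They held 345733 and 275997 UMIs in all. The 2 libraries shared 39 barcode sequences among kept barcodes, none of them mural. Scrublet, a doublet caller, marked 0 of the 35 control and 5 of the 39 Mettl14-cKO barcodes, and 9 and 5 barcodes held at least 2 endothelial markers.

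The label was checked against genes that the rule did not use, and 10 barcodes went against it. These were the 5 control and 5 Mettl14-cKO barcodes with exactly 3 of the 7 rule genes. None of them held a UMI of Higd1b, Mgp or Abcc9, none of which is a rule gene. They carried other cells' genes in place of mural ones. Rod markers made up 1.16 to 4.53% of UMIs in the 5 control barcodes and 0.00860 to 2.38% in the 5 Mettl14-cKO ones. Müller glia markers reached 4.16% in a control and 1.92% in a Mettl14-cKO barcode. Barcodes with 4 to 7 rule genes held such RNA too. There rod markers had medians of 0.0941% (control) and 0.0719% (Mettl14-cKO) and reached 1.11% and 1.58%. Müller glia markers had medians of 0.497% and 0.363% and reached 1.47% and 0.807%. In the 64 barcodes with 4 to 7 rule genes, Higd1b, a mitochondrial protein gene typical of pericytes, was found in 64 of 64, and Mgp, an inhibitor of calcification, in 29 of 30 and 34 of 34. Of the 20 leading mural genes outside the rule (named below), these barcodes held 9 to 19 each in both libraries, while the 10 held 0 or 1. That list was drawn from the same barcodes, so it describes them only.

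Values just inside and just outside the threshold looked alike. Below it, 80 control and 62 Mettl14-cKO barcodes had 2 rule genes including Pdgfrb or Rgs5, and the non-rule genes Higd1b, Mgp and Abcc9 were found in none of them, as in the 10 barcodes with 3 rule genes. The 2 control and 2 Mettl14-cKO barcodes with exactly 4 rule genes all held Higd1b, Mgp, Myl9, Col4a1 and Igfbp7. The barcodes with 3 rule genes weighed heavily in sums, because 2 of the control ones held 32604 and 38581 UMIs: they gave 25.3% of all control mural UMIs and 15.7% of the Mettl14-cKO ones. Results are therefore given for all 74 barcodes and for the 64, a split made after the values were seen. In the 64, 11 of 13 microglial and 8 of 8 Schwann cell and melanocyte markers were at 0 in both libraries. The fibroblast list was 0.337% of UMIs in control and 0.338% in Mettl14-cKO over the 64 (0.0260 to 1.02% and 0.0725 to 1.16% per barcode), against 0.00782 and 0.00791% in other barcodes. That list of 14 includes Mgp and Col3a1, which pericytes can share, and 5 of its genes (Pdgfra, Lum, Dpt, Pi16 and Slc6a13) were at 0 in both libraries.

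**Figure D1:**
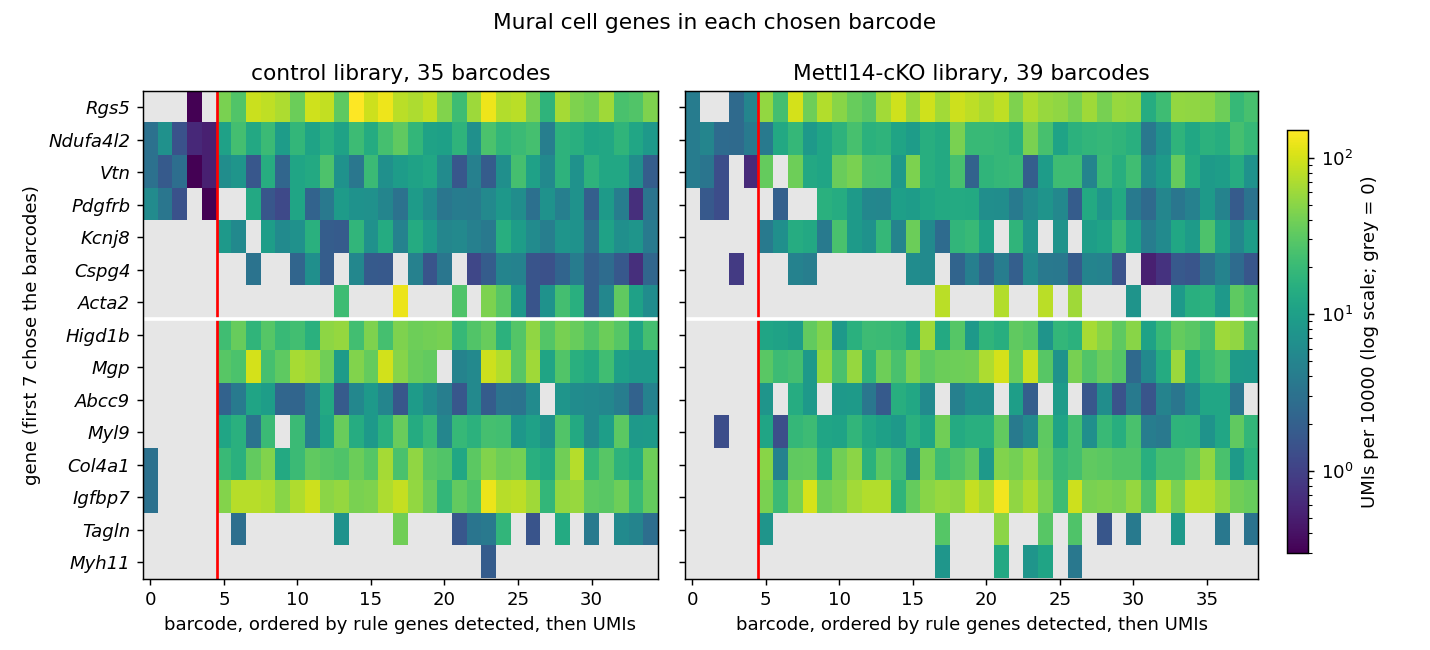
Level of 15 mural genes in each chosen barcode (colour, UMIs per 10000 on a log scale, grey for 0), for 35 control and 39 Mettl14-cKO barcodes ordered by the number of rule genes and then by UMIs. The red line parts the 5 barcodes with exactly 3 rule genes in each library from the rest: to its left the non-rule genes below the white line are almost all at 0, and to its right Higd1b is found in every barcode.

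The genes highest in mural barcodes relative to all other barcodes included pericyte genes and genes that fibroblasts also express, such as Col3a1, Aspn, Prrx1 and Ccdc80. Since the barcodes were chosen by expression, these levels are a description. Higd1b stood at 2259 UMIs per 1000000 (CPM; 95% Poisson interval 2103 to 2423) in control and 2236 (2063 to 2419) in Mettl14-cKO mural barcodes, against 0.204 and 0.155 CPM in all other barcodes, a log2 difference of 13.59. Mgp followed at 13.39 (2085 and 2236 CPM). Over all 74 barcodes the intervals of the libraries overlapped for Higd1b. In the 64, Higd1b stood at 0.878 of its control level (ratio interval 0.789 to 0.977) and Mgp at 0.951 (0.853 to 1.06).

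The channel genes were almost as particular to mural barcodes. Kcnj8 (log2 12.61 over all other barcodes) encodes the pore of the ATP-sensitive potassium channel that relaxes vessels, and Abcc9 (11.06) encodes its sulfonylurea receptor subunit. Kcnj8 is a rule gene, so its level and counts depend on the rule, while Abcc9 is not one. The 2 genes lie next to each other on chromosome 6 (GRCm38, minus strand), Kcnj8 at 142564837 to 142571614 and Abcc9 at 142587862 to 142702315, 16247 bases apart. Of the 30 control barcodes among the 64, 29 held Kcnj8 and 29 held Abcc9; of the 34 from Mettl14-cKO, 31 and 27 did. The mouse genome was GRCm38, the build called mm10 in the submitters' processing notes.

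Receptors and matrix genes completed the list of the 25 highest. Receptors were Ednra (9.63), the endothelin receptor of vascular muscle, Tbxa2r (10.69), the thromboxane receptor, and Pdgfrb (8.43). Collagen and matrix genes were Col3a1 (13.32), Aspn (12.77) and Ccdc80 (8.32), and Itga1 (8.55) encodes a collagen-binding integrin subunit. The surface proteoglycan Cspg4, also known as NG2, stood at 9.86, the stromal antigen Cd248 at 9.59, the transcription factors Foxs1 and Prrx1 at 8.88 and 9.35, and Rgs5, which dampens G protein signalling, at 9.07. The contractile or filament genes Acta2 (11.69), Des (10.75), Myl9 (9.04) and Tagln (8.17) were in the same list, as were Ifitm1 (12.44), Art3 (10.50), Mndal (9.11), Naalad2 (9.08) and Tm4sf1 (8.54).

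Kcnj8 is an example of how the 10 off-label barcodes bear on a comparison of the libraries. Over all 74 barcodes it stood at 515 CPM (442 to 596) in control and 801 (699 to 914) in Mettl14-cKO, log2 0.64, past 1.5-fold with intervals apart. Over the 64 it was 689 CPM (591 to 798) against 950 (829 to 1084), log2 0.46, which is under 1.5-fold. Des, the muscle intermediate filament, moved the same way, from 0.70 to 0.52, and Ifitm1, an interferon-induced membrane protein, from 0.74 to 0.57.

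Contractile genes set the 64 barcodes apart from each other. UMIs of Acta2, smooth muscle actin and a rule gene, came from 15 of 30 control and 11 of 34 Mettl14-cKO barcodes, with at most 80 and 42 UMIs in 1 barcode. Tagln, which binds actin in smooth muscle and was no rule gene, was found in 11 of the 15 control barcodes with Acta2 and in 2 of the 15 without. In the Mettl14-cKO library it was found in 8 of 11 with Acta2 and 2 of 23 without. All other kept control barcodes held Tagln in 0.283%, at a median of 3484.5 UMIs. After every barcode was thinned to 1500 UMIs, Tagln remained in 7 of 30 control mural barcodes (23.3%, 9.93 to 42.3%) and in 0.121% of the others.

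Several genes stood with Acta2 over both libraries. In barcodes with Acta2, summed over both libraries, Tagln stood at 728 CPM against 44.7 in barcodes without (log2 3.97). Tpm2, a muscle tropomyosin, stood at 1119 against 324 (1.78), Tpm1, another tropomyosin, at 1052 against 354 (1.57), Crip1, a LIM domain protein, at 1663 against 633 (1.39), and Lgals1, galectin-1, at 2049 against 831 (1.30). On the other side Pcp4 (-2.59), Stmn3 (-2.38), Rp1 (-2.18) and Rab3a (-2.12) led, and the rod marker Pdc was there too (-1.63). Stmn3, Rp1 and Rab3a were lower in mural than in other barcodes (log2 -2.17, -2.81 and -2.19). The part of RNA from other retinal cells was not tested. Also on that side stood Apoe, the lipid carrier (80.9 against 339, -2.04), and Ckb, brain creatine kinase (373 against 1039, -1.47). The receptor Notch1 was there as well (44.9 against 149, -1.68). Except for Rp1 (1.17 in control), each of these differences had the same sign in both libraries. They were picked after their values were seen, and Acta2 is found more easily in deeper barcodes: the median depth was 9028 UMIs with it and 6252 without it in control, and 6540 and 5106 in Mettl14-cKO.

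Channel genes were found on both sides of that split. Kcnj8 was found in 15 of 15 control barcodes with Acta2 and 14 of 15 without, and in 8 of 11 and 23 of 23 Mettl14-cKO barcodes. Rgs5 was found in all 64. Kcnj8, Rgs5 and Acta2 are all rule genes. A barcode without Acta2 needed at least 4 of the remaining rule genes to be among the 64, so these counts depend on the rule. Abcc9, no rule gene, was found in 14 of 15 control barcodes with Acta2 and 15 of 15 without. In the Mettl14-cKO library it was found in 6 of 11 with Acta2 and 21 of 23 without.

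A few barcodes lay at the smooth muscle end. Myh11, the smooth muscle myosin heavy chain, was found in 1 control barcode (1 UMI) and 5 Mettl14-cKO barcodes (2 to 6 UMIs each, 21 in all). In 4 of the 5 Myh11 came with 30 to 42 UMIs of Acta2 and 11 to 24 of Tagln, with 0 or 1 UMI of Kcnj8 and 0 of Abcc9. The fifth held 4 UMIs of Myh11, none of Acta2 or Tagln, 4 of Kcnj8 and 1 of Abcc9. The control barcode with the most Acta2 (80 UMIs) and Tagln (25) held 3 UMIs of Kcnj8 and 0 of Myh11. Cnn1, calponin of contractile smooth muscle, gave 1 UMI in all 64 barcodes together. The share of barcodes with Myh11 was 3.33% (0.0844 to 17.2%) in control and 14.7% (4.95 to 31.1%) in Mettl14-cKO, with overlapping intervals. Its level was 3.87 CPM (0.0980 to 21.6) against 90.3 (55.9 to 138), a ratio of 23.3 (3.75 to 965) that rests on 1 control UMI and on 5 Mettl14-cKO barcodes.

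**Figure D2:**
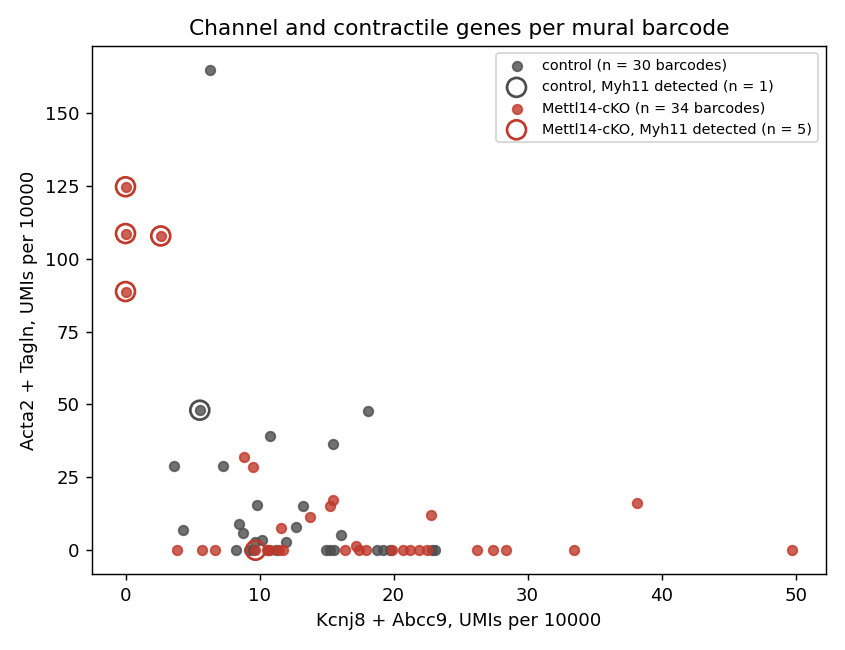
Sum of the channel genes Kcnj8 and Abcc9 (x axis) against the sum of the contractile genes Acta2 and Tagln (y axis), both in UMIs per 10000, for the 64 mural barcodes with at least 4 rule genes (30 control, 34 Mettl14-cKO). Rings mark the 1 control and 5 Mettl14-cKO barcodes with Myh11, 4 of which lie at the upper left, with Acta2 of 30 to 42 UMIs and Kcnj8 of 0 or 1.

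The promoters of Acta2, other contractile genes and several pericyte genes were read for the CArG box, the site that serum response factor binds in muscle genes. The box was searched as CC, then 6 bases that are A or T with up to 1 G or C allowed, then GG; it reads the same way on both strands in this form. The windows were the 250 bases before the gene's start in RefSeq (GRCm38.p6). Of 13 genes sought, 9 had an entry; Tagln, Myh11, Higd1b and Mgp had none. Each match is shown 5′ to 3′ on the gene's strand, with the box in capitals and 8 bases on each side, and the distance is from the first base of the box to the gene's start.
Acta2, 84 bases before, chr19:34255440-34255465, minus strand: gctgaggtCCCTATATGGttgtgtta
Acta2, 34 bases before, chr19:34255390-34255415, minus strand: tctttgctCCTTGTTTGGgaagcgag
Myl9, 161 bases before, chr2:156775295-156775320, plus strand: agcagaggCCTAATAAGGccgggctg
Myl9, 99 bases before, chr2:156775357-156775382, plus strand: ttcttctgCCTTGTAAGGccgggcgg
Crip1, 96 bases before, chr12:113151908-113151933, plus strand: ccagatgaCCATTCTTGGccagtcgg
Crip1, 18 bases before, chr12:113151986-113152011, plus strand: gggcggggCCTTAAAGGGcagggcca
Acta2, Myl9 and Crip1 thus held 2 matches each, and the first one of Myl9 has only A and T in the middle. Tpm2, Des, Kcnj8, Abcc9, Rgs5 and Vtn held none in this window. Bases after the start were sought in the gene's transcripts and were found for each of the 9 genes except Des. The Des window is therefore less certain. Among all 32851 promoter windows, 8.59% held at least 1 match and 0.670% at least 2. A match describes these letters only.

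Few genes of mural barcodes were called different between the libraries. Over all 74 barcodes, of 3525 genes with at least 30 UMIs, 101 were higher (2.87%) and 171 lower (4.85%) in Mettl14-cKO, meaning a ratio 1.5-fold or more from 1 with 95% Poisson intervals apart. A gene is said to be called higher or lower when it meets both conditions with at least 30 UMIs. Over the 64 barcodes, of 2621 such genes, 71 were higher (2.71%) and 64 lower (2.44%). Of these, 43 of the higher and 38 of the lower genes were in both sets, which is 42.6% and 22.2% of the calls over 74 barcodes and 60.6% and 59.4% of those over 64. The median log2 ratio of all genes was 0.00 (-0.00057) over 74 barcodes and 0.01 over 64. The log2 ratios below are Mettl14-cKO over control, with 0.5 added to each count.

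Among the 7 rule genes, Vtn was called higher in the 64 barcodes and the other 6 were not called. These are levels of genes that chose the barcodes and are given as a description. Vtn, which encodes the matrix protein vitronectin and is secreted by pericytes, stood at 863 CPM (753 to 984) against 1432 (1282 to 1594), log2 0.73. Per barcode it ranged from 1.61 to 26.2 UMIs per 10000 in control, with a median of 7.46, and from 0 to 43.5 in Mettl14-cKO, with a median of 14.6, so the barcodes of the libraries overlapped. In all other barcodes Vtn went the other way (log2 -0.92). Without the 7 barcodes that held 2 or more proliferation genes (given below), its log2 ratio was 0.58, under the fold. Rgs5 stood at 5847 (5556 to 6149) against 4528 (4259 to 4810), log2 -0.37, Pdgfrb at 453 against 593 (0.39), Acta2 at 1126 against 1067 (-0.08), Cspg4 at 193 against 189 (-0.03) and Ndufa4l2 at 1463 against 1531 (0.07).

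None of 20 other pericyte genes that could be compared was called in the 64 barcodes, out of 30 listed. Of all genes 2.71% were called higher and 2.44% lower there. The median log2 of the pericyte genes was -0.00 (-0.00055). Higd1b stood at 3022 against 2653 CPM (-0.19), Ebf1, a transcription factor of stromal cells, at 840 against 740 (-0.18), Serpine2, a protease inhibitor, at 824 against 598 (-0.46) and Cd63, a tetraspanin, at 739 against 770 (0.06). Over all 74 barcodes 3 of these 20 genes were higher, beside 2.87% of all genes. Among them were Ifitm1 and Gja4, a gap junction connexin (0.79, and 0.62 in the 64, where its intervals overlapped).

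Genes that set vascular tone were alike in this, with 0 of 8 called in the 64 barcodes and a median of -0.05. Gucy1a1 and Gucy1b1, the subunits of the nitric oxide receptor, stood at 1041 against 1011 CPM (-0.04) and 352 against 473 (0.42). Ednra stood at 337 against 331 (-0.02). Trpc6, a calcium-permeable channel, had 20 UMIs in 12 control barcodes and 4 in 4 Mettl14-cKO barcodes, too few to count.

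The contractile list had 2 of 11 genes lower and none higher in the 64 barcodes, beside 2.44% and 2.71% of all genes. Its median was -0.26, against 0.01 for all genes. The lower ones were Tpm1, at 894 CPM (782 to 1017) against 421 (342 to 514), log2 -1.08, and Crip1, at 1312 (1176 to 1459) against 864 (749 to 993), -0.60. Crip1 was not called over all 74 barcodes (-0.13), nor with every one of the 64 weighing equally (-0.42). Tpm1 was lower over both sets (-0.91 over 74), and its median per barcode was 5.61 against 2.22 UMIs per 10000. Leaving out of the 74 the 9 control and 5 Mettl14-cKO barcodes with at least 2 endothelial markers put Tpm1 at -0.56, under the fold, and Crip1 at 0.25, the other way. Acta2, Tagln (348 against 361 CPM; 0.05), Myl9 (1443 against 1337; -0.11) and Cald1, caldesmon (2302 against 1892; -0.28), stayed within the fold. Acta2 was held by 50% of control (31.3 to 68.7%) and 32.4% of Mettl14-cKO barcodes (17.4 to 50.5%), with overlapping intervals, and by 36.7% and 32.4% after thinning to 1500 UMIs.

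Among genes of the basement membrane that pericytes share with endothelium, and of other matrix, few were called. Of 23 such genes only Vtn was called (higher, beside 2.71% of all genes), and their median was -0.22. The collagen IV chains Col4a1 and Col4a2 stood at 2999 against 2520 CPM (-0.25) and 1401 against 1140 (-0.30), and Sparc, a collagen-binding matrix protein, at 1923 against 2146 (0.16). The PDGF family list had 2 genes to compare, the rule gene Pdgfrb and Pdgfa, neither called. In the Notch pathway, through which endothelium signals to mural cells, 0 of 6 genes were called: the mural receptor Notch3 stood at 224 against 189 (-0.24) and its target Heyl at 166 against 181 (0.12).

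A pair of growth factor genes were called. Of 8 angiopoietin, VEGF and TGF-beta genes that could be compared, Mdk (midkine) was higher (147 against 275 CPM; 0.90) and Ptn (pleiotrophin) lower (743 against 417; -0.83), beside 2.71% and 2.44% of all genes. Ptn was not called over all 74 barcodes (-0.13). Igfbp7, a secreted protein abundant in vessels, stood at 4841 against 5268 (0.12). Of 4 interferon-response genes none was called, and Ifitm3 stood at 1250 against 1419 (0.18).

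Cygb rose in Mettl14-cKO mural barcodes and stayed level in other cells. It encodes cytoglobin, an oxygen-binding globin of stromal cells and pericytes, and lies on chromosome 11 (GRCm38, minus strand) at 116645595 to 116654313. In the 64 barcodes it had 11 UMIs in 5 control barcodes and 49 in 21 Mettl14-cKO barcodes, 42.6 CPM (21.2 to 76.2) against 211 (156 to 279). The log2 ratio was 2.26, and the ratio's exact interval ran from 2.54 to 10.6. No single barcode held more than 5 of these UMIs in either library. Control barcodes had a median of 0 and a highest value of 7.62 UMIs per 10000, and Mettl14-cKO barcodes a median of 1.62 and a highest of 8.82, so the ranges overlapped. In all other barcodes Cygb stood at 49.8 and 47.0 CPM (-0.08). Endothelial barcodes gave 13.6 and 12.9 CPM on 7 and 5 UMIs. Microglial barcodes gave 13.2 and 3.97 CPM on 4 and 3 UMIs, with overlapping intervals. Cygb is in the fibroblast list too, whose other members with at least 30 UMIs, Mgp, Col3a1 and Col1a2, were not called; the part of fibroblast RNA was not tested. Cygb was called higher under all 10 other settings of barcodes and scaling, with log2 from 1.74 to 2.90.

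Marc2, a mitochondrial reductase gene, was higher too: in the 64 it was spread over 12 control and 19 Mettl14-cKO barcodes with 14 and 36 UMIs (log2 1.48); with the 64 weighing equally it was 1.11 and was no longer counted as higher.

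Cdkn2a had the highest mural over other level among the 64 genes that fell, 8.11 log2 units. It encodes cell cycle inhibitors of the INK4 and ARF kinds. The 64 barcodes held 38 UMIs of it in 16 control barcodes (147 CPM; 104 to 202) and 8 in 5 Mettl14-cKO barcodes (34.4; 14.9 to 67.8), log2 -2.03. The highest barcode held 11 and 3 UMIs, and medians were 0.766 and 0 UMIs per 10000. The fall remained without the barcodes with 2 or more proliferation genes (-2.57).

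S100a6, Cryab and Fabp5 were lower in many barcodes. S100a6, a calcium-binding protein, stood at 519 CPM (434 to 614) against 206 (152 to 274), log2 -1.32, and was absent from 1 of 30 control and 14 of 34 Mettl14-cKO barcodes. Cryab, a small heat shock protein, stood at 793 (688 to 910) against 366 (292 to 452), -1.11. S100a6 and Cryab were lower over all 74 barcodes too (-1.13 and -0.95). Fabp5, a fatty acid binding protein, stood at 4508 (4253 to 4774) against 2942 (2725 to 3170), -0.62. Over all 74 barcodes Fabp5 was under the fold (-0.42), as it was with the 64 weighing equally (-0.46), and it was -0.05 without the barcodes with at least 2 endothelial markers. S100a6 and Cryab were still called lower without those barcodes (-1.06 and -0.89). In all other barcodes Fabp5 leaned the other way (0.50) and Cryab the same way by less (-0.48). S100a6 was lower there too, past 1.5-fold (7.90 against 4.07 CPM, -0.95).

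**Figure D3:**
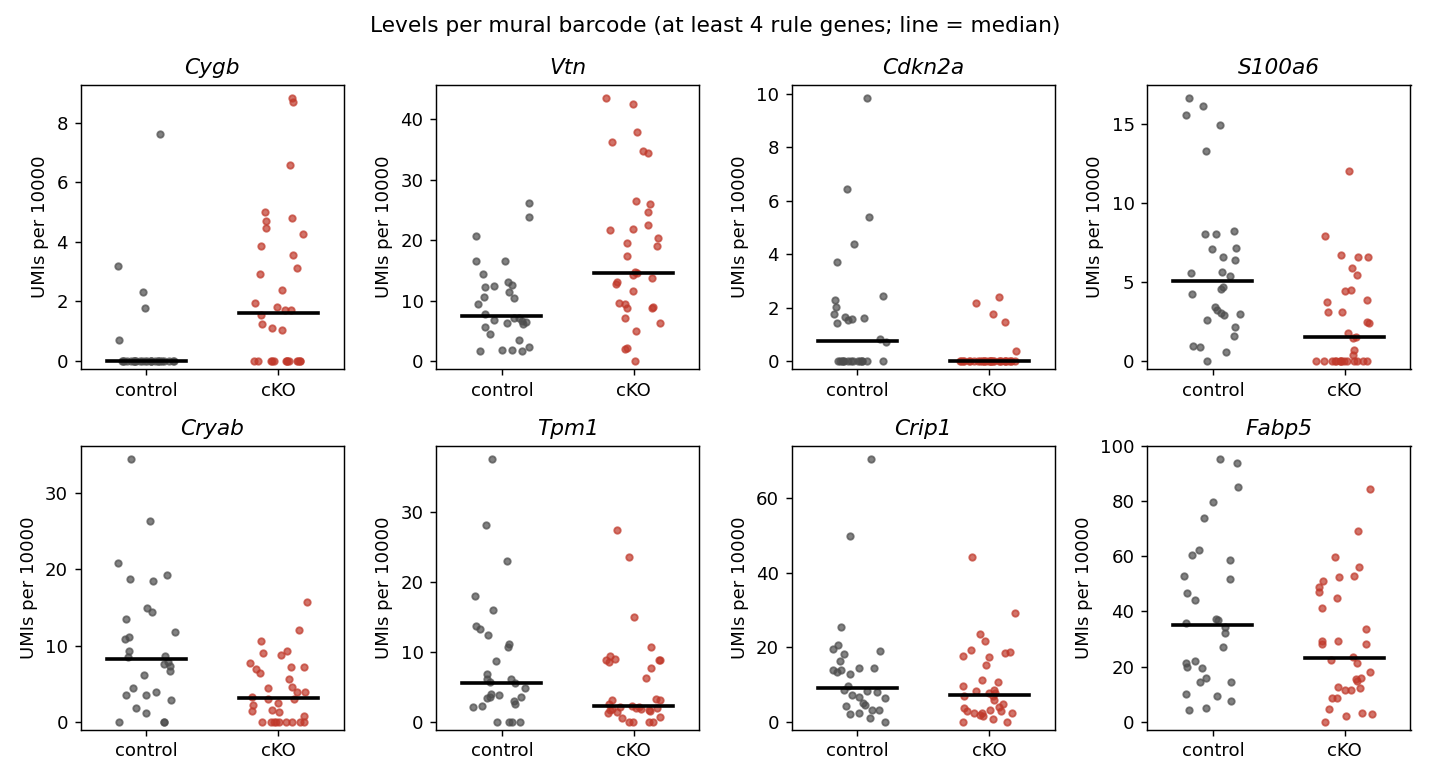
UMIs per 10000 (y axis, starting near 0) of 8 genes in each of the 30 control and 34 Mettl14-cKO mural barcodes with at least 4 rule genes; the black line is the median. Cygb and Vtn have higher medians in Mettl14-cKO, and Cdkn2a, S100a6, Cryab, Tpm1, Crip1 and Fabp5 lower ones (Fabp5 35.1 against 23.0), with barcodes of both libraries overlapping in every gene.

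Dividing mural cells were found mostly in the control library. Over all 74 barcodes 7 of 11 G2 and M phase genes that could be compared were lower in Mettl14-cKO, beside 4.85% of all genes. In the 64 barcodes 8 of 10 were lower and none higher (median -2.78), beside 2.44% and 2.71% of all genes. They were Ube2c, an enzyme that drives exit from mitosis (60 UMIs against 2), Cenpa, the centromere histone (43 against 1), Cenpf, a kinetochore protein (38 against 1), Birc5, survivin (38 against 2), Top2a, topoisomerase II (31 against 3), Mki67, the proliferation antigen (42 against 7), Hmgb2 (171 against 26) and Cks2 (42 against 8). The UMIs sat in few barcodes: the top one held 27 of the 42 control UMIs of Mki67 and 21 of the 38 of Cenpf. Cks2 sat in 3 control and 7 Mettl14-cKO barcodes, and Hmgb2 in 23 and 10.

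Counted as barcodes, 6 of 30 control mural barcodes (20%, 7.71 to 38.6%) held 2 or more genes of the set Ube2c, Cenpf, Cdk1, Mki67 and Top2a, against 1 of 34 in Mettl14-cKO (2.94%, 0.0744 to 15.3%). The intervals overlap. Thinned to 1500 UMIs the counts were 3 of 30 and 0 of 34 (exact interval 0 to 10.3%). In all other barcodes the share was lower in control (0.468%) than in Mettl14-cKO (2.01%). The 6 control barcodes and the 1 Mettl14-cKO barcode held Rgs5 and Higd1b like the rest, and 5 of the 7 held Acta2. Without these 7 barcodes, 44 genes were higher and 37 lower among the rest of the 64, and Hmgb2 was no longer called (-0.91). Cks2 turned to 3.84, but with at most 8 Mettl14-cKO UMIs it was too thinly counted for a call, which needs 30. Ube2c was one of the genes that chose these barcodes, so its level without them says nothing. Hmgb2 and Cks2 are on the G2 and M phase list too, so their change is a description only. Of the S phase list 0 of 5 genes were called in the 64 (median -0.03). Outside both cell cycle lists, the histone genes Hist1h2ap (263 against 36 UMIs, -2.70) and Hist1h1b (58 against 15, -1.76) were called lower there. Pclaf (47 against 14 UMIs, -1.56) was called lower as well. In Mettl14-cKO 1 barcode held 34 of the 36 UMIs of Hist1h2ap and all 14 of Pclaf.

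**Figure D4:**
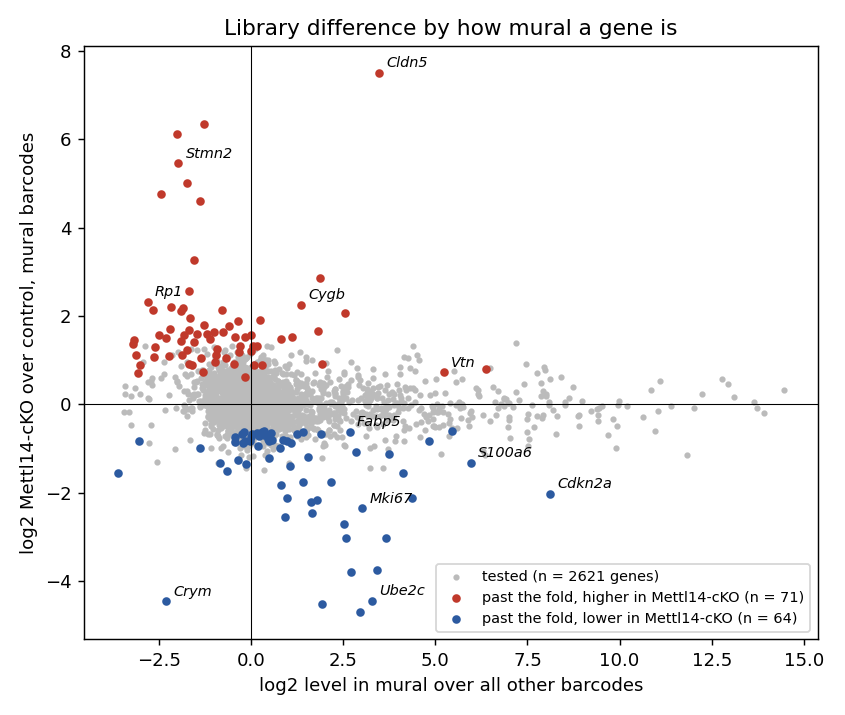
Log2 ratio of Mettl14-cKO to control in the 64 mural barcodes (y axis) against the log2 level in mural over all other barcodes (x axis) for 2621 genes, with 71 higher (red) and 64 lower (blue) ones. At 0 or above on the x axis, where a gene is at least as high in mural as in other barcodes, lie 16 of the 71 higher and 48 of the 64 lower genes. The share of all 2621 genes that lies there is not given, so these counts only describe the called genes.

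Of the 71 genes that were higher in Mettl14-cKO, 16 were at least as high in mural as in other barcodes. The share of all genes for which this holds is not given here. Several of the 71 came from few barcodes. Cldn5, the tight junction protein of endothelium, had 81 UMIs in 1 Mettl14-cKO barcode and 0 in all others; that barcode of 26982 UMIs held 7 endothelial markers together with 53 UMIs of Higd1b. It also held 34 of the 39 UMIs of Egfl7, an endothelial secreted protein. Cldn5 and Egfl7 were both among the 16 (log2 3.48 and 2.54 in mural over other barcodes). Stmn2, a neuronal tubulin regulator, had 1 UMI in control and 59 in 10 Mettl14-cKO barcodes, 43 of them in 1 that Scrublet marked. Rp1, a rod axoneme protein, had 20 against 92 UMIs, 75 of the latter in 1 barcode. Leaving out the top barcode of each gene in each library, 61 of the 71 higher and 62 of the 64 lower genes were still 1.5-fold from 1 the same way.

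Rod markers show the weight of the 10 off-label barcodes most plainly. Over all 74 barcodes, 13 of 13 rod markers that could be compared were lower in Mettl14-cKO (median -1.44), beside 4.85% of all genes. The rod list was 0.900% of mural UMIs in control against 0.343% in Mettl14-cKO. In the 64 barcodes 3 of 11 rod markers were higher and 2 lower, beside 2.71% and 2.44% of all genes. Their median was -0.03, and the list was 0.183% and 0.215% of UMIs. Photoreceptor genes such as Pde6b, Prom1 and Rpgrip1 stood among the 12 lowest ratios over 74 barcodes; in the 64 each had fewer than 30 UMIs, too few for a call, and their log2 ratios were 2.65, 0.39 and 0.66. In all other barcodes rod markers made up 2.01% and 1.24% of UMIs. Of the 24 genes with the highest and lowest ratios over 74 barcodes, 14 were called the same way in the 64.

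Crym, a thyroid hormone binding protein, was the lowest of those 24 after Ube2c. It had 36 UMIs in 8 control barcodes, 26 of them in 1, and 1 UMI in Mettl14-cKO, log2 -4.45 in the 64. Crym was lower in mural than in other barcodes (log2 -2.29) and stood in the list of Müller glia markers. Of these, 2 of 6, Crym and Dbi, were lower in the 64 barcodes, beside 2.44% of all genes. That list made up 0.563% and 0.381% of UMIs, 0.183 to 1.47% per control barcode and 0.116 to 0.807% per Mettl14-cKO barcode. The part that RNA of Müller glia plays in these differences was not tested.

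Some genes of respiration were lower, in mural and in other barcodes alike. Of 37 nuclear genes of oxidative phosphorylation, 6 were lower and 1 higher in the 64 barcodes, beside 2.44% and 2.71% of all genes. Their median was -0.30. The list was 3.17% of UMIs in control and 2.61% in Mettl14-cKO over the 64, and 3.09% and 2.69% in all other barcodes. Cox7c, a subunit of cytochrome oxidase, stood at 1768 against 1114 CPM (-0.67) and Atp5e, of ATP synthase, at 1586 against 981 (-0.69). Over all 74 barcodes the list had 3 lower and none higher, beside 4.85% and 2.87% of all genes. The 1 higher gene, Ndufa4 (57 against 108 UMIs), was lower in mural than in other barcodes (log2 -2.63). Ribosomal protein genes made up 19.2% and 18.0% of UMIs in the 64 (3 of 83 lower, median -0.06), and 16.4% and 17.3% over all 74 (3 of 84 lower, median 0.10). In hypoxia and glycolysis 1 of 11 genes, Eno1, was lower (290 against 146 CPM; -0.98); that list made up 0.751% and 0.665% of UMIs in the 64, and 1.07% and 0.829% in other barcodes.

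Mettl14 itself was near the limit of detection in mural barcodes. Over all 74 it had 5 UMIs in 5 control barcodes (14.5 CPM, 4.70 to 33.7) and 0 in Mettl14-cKO (0 to 13.4 CPM). In the 64 it was 3 against 0. No ratio was taken, and a loss of Mettl14 RNA from mural cells was not detectable at this depth. In all other barcodes it stood at 27.2 CPM (25.9 to 28.7) against 14.5 (13.6 to 15.6), in endothelial barcodes at 25.3 against 20.7 and in microglial ones at 13.2 against 9.26, with intervals that overlap in both. Which exons the floxed allele loses is not in the labels, and 3' counting can read RNA of a deleted allele. Of the other m6A writers only Zc3h13 had enough UMIs in the 64 to compare (77.4 against 103 CPM; 0.41), and it was within the fold.

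Genes raised across retinal cells in earlier results of these data were thinly counted in mural barcodes. Cdkn1a, the cell cycle inhibitor p21, had 0 UMIs in 30 control barcodes and 15 in 3 of 34 Mettl14-cKO barcodes. The barcode with 7 endothelial markers held 8 of these and one with 1.58% rod markers held 4. All other barcodes gave 27.6 CPM (26.2 to 29.0) and 118 (115 to 121), and endothelial barcodes 109 and 209. In control mural barcodes the interval of Cdkn1a reached 14.3 CPM, below the level in other barcodes.

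Abcd4, a lysosomal transporter gene, was found in 4 control and 12 Mettl14-cKO barcodes of the 64, with 5 and 12 UMIs (19.3 and 51.6 CPM, intervals overlapping); over all 74 it had 5 and 19 (14.5, 4.70 to 33.7, against 68.8, 41.4 to 107). Its level in other barcodes was 11.7 against 40.1 CPM. Lcmt2 had 1 against 4 UMIs and Zfp992 0 against 3, where other barcodes gave 12.7 against 56.7 and 2.80 against 35.9 CPM. Phlda3 and Aen, targets of p53, had 12 against 12 and 9 against 5 UMIs in the 64, while other barcodes gave 7.70 against 24.0 and 22.4 against 58.0 CPM. Of the 15 genes on that list none reached 30 UMIs in the 64 barcodes, so none could be counted as higher or lower there. On a separate list of 21 p53 targets, 2 could be compared in the 64. Of these 1 was called higher (median 0.88), beside 2.71% of all genes. The p53 list was 0.0635% of UMIs in control and 0.0912% in Mettl14-cKO there, and 0.0988% and 0.122% in other barcodes. Over all 74 barcodes 0 of 2 were called (median 0.28).

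**Figure D5:**
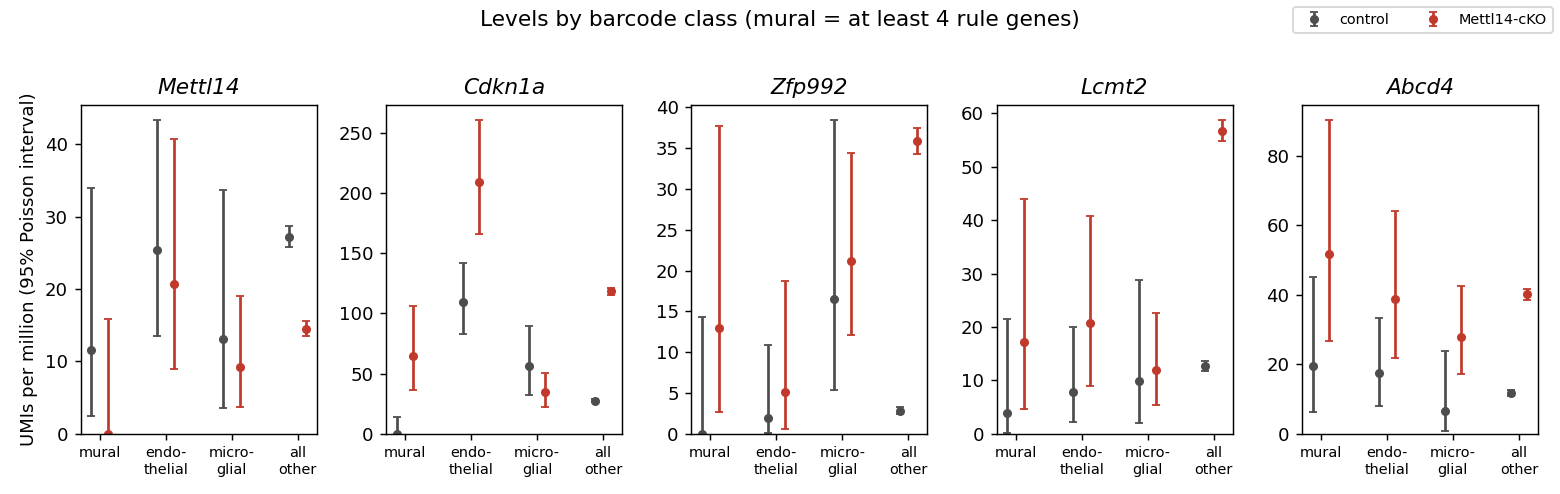
Level in UMIs per 1000000 with 95% Poisson intervals (y axis, each panel with its own scale from 0) of Mettl14 and 4 genes raised across retinal cells, in the 64 mural barcodes, 87 endothelial, 172 microglial and all other kept barcodes of the control and Mettl14-cKO libraries. All other barcodes have narrow intervals that lie apart in each gene, and the mural intervals are wide, apart between libraries for Cdkn1a alone (0 to 14.3 against 36.1 to 106).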

How the data were processed

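UMI counts per gene and barcode were deposited by the authors without normalization, made with Cell Ranger 6.1.1 on mm10 per the submitters' processing notes and the file headers; the handling of intronic reads is not given in the sources used here. The files held 13287 control and 15319 Mettl14-cKO barcodes with 55921787 and 59856468 UMIs over 32285 genes. Barcodes were filtered and chosen as the report states. The members, gene lists and alternatives were chosen with earlier results of these data known. UMIs were summed per library and scaled to 1000000; levels have exact 95% Poisson intervals, ratios exact conditional intervals and shares exact Clopper-Pearson intervals, for counting error only. No test was made, because cells are not replicates. Genes were compared with at least 30 UMIs over both libraries.

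Genes were named by rule: Mettl14, the rule genes and C1qa; 12 genes at each end of the ratio, given 50 UMIs or more and intervals apart; the 25 genes highest in mural over other barcodes, among those in at least 20% of mural barcodes; list members that were most abundant or called; and genes raised in other retinal cells. Genes named for the 64 barcodes beyond these, and those that stood with Acta2, were chosen after their values were seen. Endothelial and microglial barcodes held at least 3 of 7 markers. Doublets were called per library with Scrublet (scanpy 1.11.5, 0.8% per 1000 barcodes) and kept, with an alternative that leaves them out; doublets of like cells are not found so. Thinning used 1500 UMIs. Other tools were numpy 2.4.6, scipy 1.17.1 and pandas 2.3.3. Some single-gene results are not reported here. The calculations were tested on simulated counts.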

Additional observations from a re-analysis of the deposited data

How the results depend on the processing

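Leave-one-out was not possible with 1 library per genotype. No paired analysis was possible because each genotype has 1 library. Depth is a limit: genes with fewer than 30 UMIs over both libraries were not compared. Alternatives with the top barcode left out, and those that combine at least 4 rule genes with equal weights or without proliferating barcodes, were chosen after seeing the data; the cause of a change was not tested. Genes higher in Mettl14-cKO numbered 101 over all mural barcodes, 61 among genes with at least 60 UMIs, 67 at a fold of 2, 402 at a fold of 1.5 alone, 49 among genes at least as high in mural barcodes, 49 without each gene's top barcode, 61 with at least 4 rule genes weighing equally and 44 with at least 4 and no proliferating barcode. Genes lower numbered 171, and 97 with at least 60 UMIs, 508 at a fold of 1.5 alone, 35 among genes at least as high in mural barcodes, 91 without the top barcode, 65 with at least 4 rule genes weighing equally, 37 with at least 4 and no proliferating barcode, 64 with at least 4 rule genes and 86 with all barcodes weighing equally. Gene lists with a median above that of all genes fell from 20 to 13 with at least 4 rule genes. Of the 24 genes named by ratio, 14 kept their call with at least 4 rule genes, 15 without the top barcode, 9 with at least 4 weighing equally and 10 with at least 4 and no proliferating barcode. Thinning to 1500 UMIs took Tagln from 37.1% to 20% of control and from 25.6% to 12.8% of Mettl14-cKO barcodes, and Myh11 in control from 2.86% to 0. With at least 4 rule genes the median of cone markers turned to 1.30, and log2 ratios turned for Casz1 (0.15), and, there, with equal weights and without proliferating barcodes in turn, for Prom1 (0.39, 0.50, 0.28), Pde6b (2.65, 1.64, 2.25), Rpgrip1 (0.66, 0.30, 0.26), Rp1 (2.33, 1.58, 1.93) and Tesc (-2.66, -3.11, -3.06; -1.22 without its top barcode). Egfl7 turned to -0.36 without its top barcode and Stmn3 to -0.49 without doublets. Cks2 and Hist1h1b turned to 3.84 and 2.07 without proliferating barcodes, on at most 8 and 15 Mettl14-cKO UMIs, too few for a call.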
